A study of Mus musculus with 6 samples.

Results

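Bdnf encodes brain-derived neurotrophic factor, a secreted growth factor of neurons that is made as a precursor, cleaved, and bound by the receptor tyrosine kinase TrkB, the product of Ntrk2. The gene is known for its transcription in response to neuronal activity. Each of several promoters starts its own 5′ exon, which is spliced to a common exon with the whole coding sequence and the 3′ UTR, and mRNAs with a short and a long 3′ UTR are known. RNA bisulfite sequencing (RNA BS-seq) reads m5C, the cytosine methylated at carbon 5, as an unconverted C, while other cytosines are read as T. Described here are the cytosines listed for Bdnf in RNA BS-seq of the poly(A) RNA of mouse cortical neurons in culture, 351 positions of 5240657 listed in any library for all genes and unannotated sequence. They were chosen as all listed positions with a reference C, called methylated by the caller, and assigned to Bdnf.

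The neurons came from wild-type C57BL/6 embryos (WT, pooled male and female) at E16.5 and were grown to day 7 in vitro. All groups, including 0 h, were silenced overnight with 1 µM tetrodotoxin (TTX) and 100 µM DL-AP5, which block sodium channels and NMDA receptors, and 55 mM KCl then depolarized them over 0 h (no time in KCl), 2 h, or 6 h. There were 2 biological replicates per time point. The 0 h group is therefore a silenced culture, not one with ongoing activity.

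A position was listed when it had at least 10 reads and at least 1 unconverted read, so a cytosine without an unconverted read is absent however well it was covered. The libraries listed 1559828 to 2374392 cytosines with a summed coverage of 1637706778 to 2352246636. Scaled coverage is coverage divided by this sum and multiplied by 1000000000. The neuronal markers Tubb3, Map2, Rbfox3, Snap25, Syn1, Slc17a7, and Gad1 were listed in every library. All 4 astrocyte markers (Gfap, Aqp4, Aldh1l1, Slc1a3) and all 4 oligodendrocyte lineage markers (Olig1, Olig2, Pdgfra, Mbp) were listed in every library too. The summed scaled coverage of the neuronal list was 10702 to 11194 in the 0 h libraries, 6567 to 6737 after 2 h, and 5736 to 6678 after 6 h. Tubb3 made up most of this sum at 0 h, and was the 1 marker of the list called lower at 6 h (log2 difference -1.37, limma adjusted p = 0.0387; 0.0788 with median-of-ratios scaling), where 7.16% of all genes were called lower, so 1 of 7 is near the background. Gad1 differed by 1.01 and Map2 by -0.26 from 0 h to 6 h (1.43 and 0.17 with median-of-ratios scaling, under which Gad1 was called higher, limma adjusted p = 0.0459, as were 2.01% of all genes). The median log2 difference of the list was -0.33 at 2 h and -0.94 at 6 h. The summed scaled coverage of the astrocyte list was 1958 to 2249, 1837 to 1958, and 1363 to 1642, in the same order, and that of the oligodendrocyte lineage list was 1522 to 1763, 936 to 1034, and 1346 to 1542. Of the 4 microglial markers, Cx3cr1 was listed in every library with a median of 141 to 297 reads and Aif1 in 4 libraries, while P2ry12 and Csf1r were listed in none. Of the 2 endothelial markers, Pecam1 was listed in 3 libraries with a median of 17.5 to 25 reads, and Cldn5 in none. The part of these lists in the Bdnf values was not tested, and in bulk RNA a change in the number of cells cannot be told apart from a change in RNA per cell.

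The mouse gene (ENSMUSG00000048482.14) lies on the plus strand at chr2:109674700-109727007 of GRCm38. It has 11 coding transcripts in the GENCODE annotation, all with the same 3′ end, so no short 3′ UTR is annotated and the 3′ UTR was divided 400 nt after the stop codon. The 8 alternative 5′ exons, merged from GENCODE and RefSeq, are numbered I to VIII here in the order of the annotation. RefSeq also extends the coding exon upstream by 461 nt with 97 cytosines, and ends the 3′ UTR at chr2:109727043, the end used here. The coding sequence spans chr2:109723403-109724152, 750 nt with 180 cytosines.

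Bdnf was listed at few positions at 0 h and at many after KCl. The 0 h replicates held 8 and 4 positions, against 91 and 166 in those of 2 h and 133 and 206 in those of 6 h. Of the 351 positions, 198 were listed in 1 library, 75 in 2, 54 in 3, 22 in 4, 2 in 5, and 0 in all 6. By segment, 173 positions lay in the coding sequence, 119 in the distal 3′ UTR, 35 in exon I, 15 in exon IV, 5 in the proximal 3′ UTR, 3 in exon II, and 1 in the 5′ UTR part of the coding exon. Exons III, V, VI, VII, and VIII, the RefSeq extension of the coding exon, and the introns had none.

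The positions to which the results on methylation refer are shown with their 21 nt of sequence context from the deposited lists, with the listed cytosine in capitals. The following 5 had the highest mean level among the positions listed in the most libraries, and all lay in the coding sequence. Each was listed at 0 h, where 1 unconverted read of 31 to 101 reads raised its mean level:
chr2:109723960: tctacgagacCaagtgtaatc
chr2:109723684: tgtacacttcCcgggtgatgc
chr2:109723927: tcccggtatcCaaaggccaac
chr2:109723926: gtcccggtatCcaaaggccaa
chr2:109723943: ccaactgaagCagtatttcta

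The following 4 were chosen after their values were seen. They are the position with the lowest adjusted p between 2 h and 6 h, those with the most unconverted reads in the coding sequence and in the distal 3′ UTR, and the one with the highest level at a coverage of at least 20. The first and second lie in the coding sequence, the third in the distal 3′ UTR, and the fourth in the A-rich proximal 3′ UTR:
chr2:109723984: tgggttacacCaaggaaggct
chr2:109723710: agtcaagtgcCtttggagcct
chr2:109726185: ggcaaacaatCgcttcatctt
chr2:109724536: aaacaaaaaaCaaaaacaaaa

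To determine how much Bdnf mRNA was sampled at each time point, the median coverage over the listed positions of each gene was compared between time points. Bdnf coverage rose after 6 h of KCl. In the 0 h replicates the median was 73.5 and 37 reads, in the 2 h replicates 989 and 552, and in the 6 h replicates 1430 and 1312. The scaled coverage was 34.9 and 22.6 in the 0 h replicates, then 420 and 290 after 2 h, then 647 and 593 after 6 h, so the replicates of the 3 time points did not overlap. From 0 h to 6 h the log2 difference was 4.46 ± 0.34 (SE), a 22.0-fold rise with a limma adjusted p of 0.0292. Of all 10804 genes tested, 1.16% were called higher at 6 h and 7.16% lower (2.01% and 2.25% with median-of-ratios scaling), and Bdnf had the fourth largest increase. From 0 h to 2 h the log2 difference was 3.64 ± 0.34, with a limma adjusted p of 0.0579, which missed the threshold of 0.05, while 0.00926% of genes were called higher. From 2 h to 6 h the log2 difference was 0.83 ± 0.34, with a limma adjusted p of 0.221, and 0% of genes were called higher, although 2597 genes had an unadjusted p of at most 0.05 in either direction. When any 1 of the 6 libraries was left out, the difference from 0 h to 6 h stayed between 4.15 and 4.78 on the log2 scale, but the limma adjusted p was 0.0575 to 0.133 and the call was lost in each case. Both comparisons with 0 h share the 0 h libraries. The median log2 difference of all genes was -0.22 from 0 h to 2 h, -0.41 from 0 h to 6 h, and -0.20 from 2 h to 6 h. With median-of-ratios scaling, which divides by a size factor of each library, that from 0 h to 6 h was 0.02.

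Whether a comparison passed the test depended on the positions used, in 2 sets of positions chosen after the values were seen. In the coding sequence alone, the limma adjusted p was 0.0326 for 2 h against 0 h and 0.0101 for 6 h against 0 h, where 0.621% and 3.43% of 9668 genes were called higher. For 6 h against 2 h the log2 difference there was 0.97, with a limma adjusted p of 0.12, which missed the threshold, while 3.86% of genes were called higher. At the 21 positions listed in all 4 libraries of 2 h and 6 h, the mean scaled coverage was 477 and 405 after 2 h, against 858 and 915 after 6 h, a log2 difference of 1.01 with a limma adjusted p of 6.82e-10. At such positions 18.1% of 4553 genes were called higher.

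The coding sequence held all 12 of the values listed at 0 h. With coverage interpolated over its 180 cytosines, the mean scaled coverage was 29.9 and 27.8 in the 0 h replicates, then 473 and 398 after 2 h, then 842 and 877 after 6 h. The mean over replicates was 28.9 ± 1.5 (SD, n = 2), 435 ± 53, and 859 ± 24 in turn. Interpolation takes the coverage of unlisted cytosines from their listed neighbours, which are likelier to be well covered.

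Coverage was uneven within the coding sequence in a similar way in the 2 h and 6 h libraries. From nt 151 to 300 of the coding sequence, the median at listed positions was 147% to 151% of the coding mean in the 4 libraries of 2 h and 6 h. Over the last 150 nt before the end of the stop codon it was 67.8% to 71.8%, and over the first 150 nt of the coding sequence 55.0% to 73.3%. The 0 h libraries had 0 to 2 positions in each of these stretches, too few to compare.

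**Figure D1:**
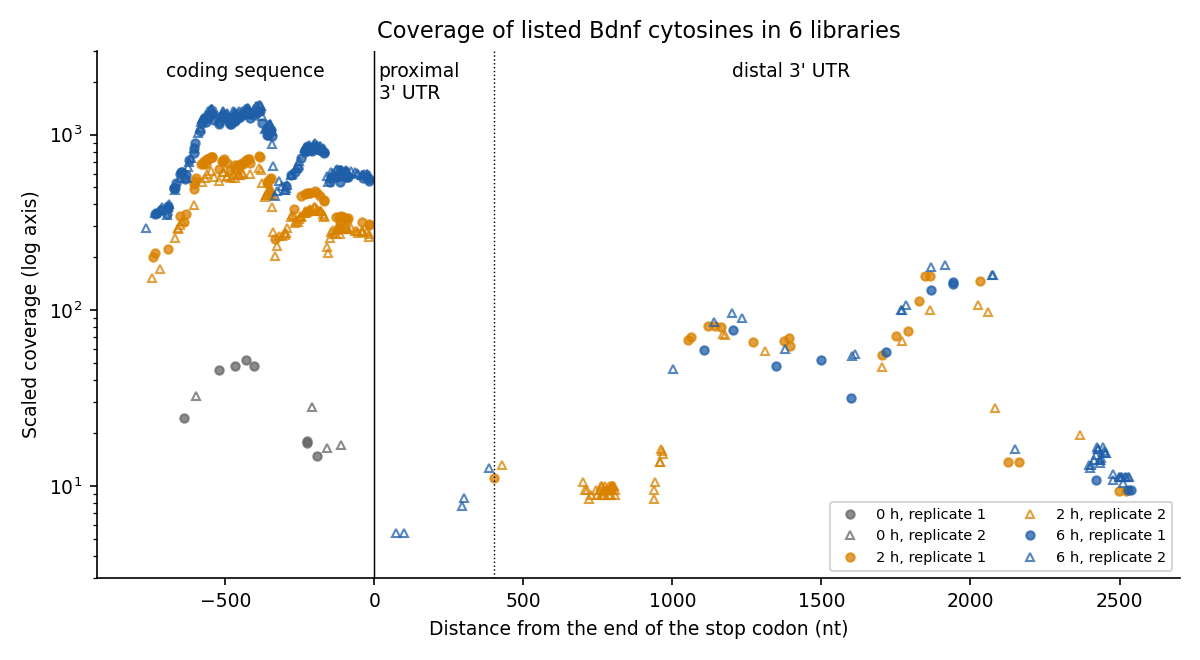
Scaled coverage (log axis) of each listed cytosine against its distance in nt from the end of the stop codon, for the coding exon, with filled circles for replicate 1 and open triangles for replicate 2 of 0 h (grey), 2 h (orange), and 6 h (blue). Lines mark the stop codon and 400 nt after it. Coverage in the coding sequence was highest at 6 h and lowest at 0 h, was near 10 or unlisted for 1000 nt after the stop codon, and was again near 100 just before 2000 nt, where the colours of 2 h and 6 h overlap.

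The proximal 3′ UTR, which both mRNA classes carry, was nearly empty. Its 49 cytosines made up 12.2% of its 400 nt, against 24.0% in the coding sequence and 17.3% in the distal 3′ UTR. The only listed positions were 5 in the 6 h replicate 2 library, with coverage of 12 to 28 reads. Between 501 and 1000 nt after the stop codon, positions were listed in the 2 h replicate 2 library alone, 39 of them with 16 to 31 reads. From 1501 to 2000 nt, listed positions of the 6 h replicate 2 library had 122 to 403 reads. Since mRNAs with the distal part also carry the proximal part, coverage along the 3′ UTR does not measure the amount of each class. The cause of this unevenness was not tested. As fewer than 3 positions were listed in the proximal part in 5 libraries, the ratio of distal to proximal coverage could not be fitted.

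The distal 3′ UTR, present only in the long mRNA class, was listed after KCl and not at 0 h. The 2 h replicates listed 21 and 50 positions, and the 6 h replicates 12 and 42. Between 1001 and 1500 nt after the stop codon, the median scaled coverage was 69.3 and 72.0 after 2 h, against 55.9 and 85.9 after 6 h. Between 1501 and 2000 nt it was 94.6 and 66.8 after 2 h, against 131 and 101 after 6 h. In the first of these windows the time points overlapped, and in the second the 6 h values were both higher.

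Relative to the coding sequence, the distal 3′ UTR had less coverage at 6 h than at 2 h in windows and with interpolation. By the median at all listed positions, the time points overlapped. In the window from 1001 to 1500 nt, distal coverage was 14.7% and 18.1% of the coding mean after 2 h, against 6.63% and 9.80% after 6 h. In the window from 1501 to 2000 nt it was 20.02% and 16.8% after 2 h, against 15.5% and 11.5% after 6 h. Over the whole distal part, with coverage interpolated, it was 10.4% ± 0.86 (SD, n = 2) at 2 h and 7.01% ± 0.0051 at 6 h. The difference of -3.40 percentage points separated the replicates, but an exact permutation test (two-sided) gave p = 0.333, the smallest that 2 against 2 libraries allow. With runs of low coverage (at least 5 consecutive cytosines, all listed, under 100 reads) given the coverage of their listed neighbours, the difference was -3.79. The distal median at listed positions was 12.8% and 2.91% of the coding median after 2 h, against 6.52% and 1.81% after 6 h. Without the runs it was 12.8% and 17.2% after 2 h, against 6.52% and 11.4% after 6 h. The interpolation spans stretches without a listed position, and the windows were chosen after the values were seen.

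**Figure D2:**
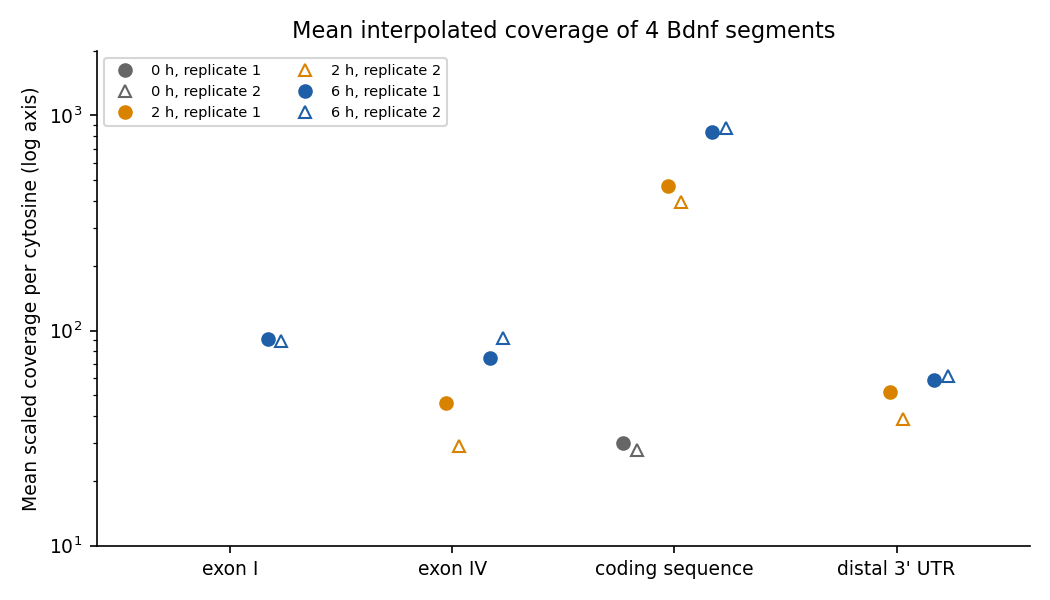
Mean scaled coverage per cytosine (log axis), with coverage interpolated over all cytosines of exon I, exon IV, the coding sequence, and the distal 3′ UTR, with 1 point per library. The coding sequence was highest in every library, exon I has points at 6 h alone (its 1 position at 2 h is not drawn), and 0 h has points in the coding sequence alone.

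The alternative 5′ exons differed in when they were listed. Exon IV (chr2:109692436-109692774) and exon I (chr2:109674700-109675339) are both known as activity-responsive first exons. Exon IV was listed at 3 positions in each 2 h library, with a median coverage of 132 and 62 reads, and at 7 and 3 positions at 6 h, with 178 and 208 reads. Exon I was listed at 1 position, with 12 reads, in the 2 h replicate 1 library and at none in replicate 2, and then at 14 and 20 positions at 6 h, with a median of 230 and 216.5 reads. Neither exon was listed at 0 h, where a share of coding coverage like that at 6 h would lie under the 10 reads needed for listing.

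Scaled to the coding median, exon IV coverage was 10.4% and 9.51% after 2 h, against 9.55% and 11.1% after 6 h, so the time points overlapped. Exon I coverage was 12.3% and 11.5% of the coding median at 6 h and 0.941% at its single position at 2 h. Exon II was listed at 1 position in 3 libraries, with 30 reads in the 2 h replicate 1 library and 42 and 92 reads at 6 h. An antisense gene, Gm45346, overlaps exons I and II, and all Bdnf positions were listed on the plus strand and for Bdnf alone. With coverage interpolated, exon IV was at 8.54% ± 1.7 (SD, n = 2) of the coding mean after 2 h and 9.71% ± 1.2 after 6 h, and an exact permutation test (two-sided) gave p = 0.667, where 2 against 2 libraries cannot go below 0.333. Exons I and II were not tested, and an exon that is not listed may still have been covered.

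No Bdnf position passed the standard filter for m5C in any library. This filter asks for a coverage of at least 20, a level (unconverted reads over unconverted and converted reads) of at least 10%, and at least 6 unconverted reads. Over all genes, 0.168% to 0.244% of the listed positions of a library passed it. With 3 unconverted reads in place of 6, 2 positions passed in 1 library each. These were chr2:109724536, shown above, with 5 of 28 reads in the 6 h replicate 2 library (17.9%), and chr2:109724555 in the distal 3′ UTR, with 3 of 26 reads in the 2 h replicate 1 library (11.5%). Neither passed in both replicates. The highest level at any coverage was 21.1%, with 4 of 19 reads at 300 nt after the stop codon in the 6 h replicate 2 library.

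Most listed Bdnf positions held a single unconverted read. These made up 7 of 8 and 4 of 4 positions in the 0 h replicates, 61.5% and 63.9% after 2 h, and 54.9% and 52.4% after 6 h, and the most unconverted reads at any position was 9. The median level was 1.84% and 2.87% in the 0 h replicates, then 0.175% and 0.311% after 2 h, then 0.114% and 0.160% after 6 h. Because the lowest level that can be listed is 1 read over the coverage, this median falls as coverage rises, and the time points cannot be compared by it.

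**Figure D3:**
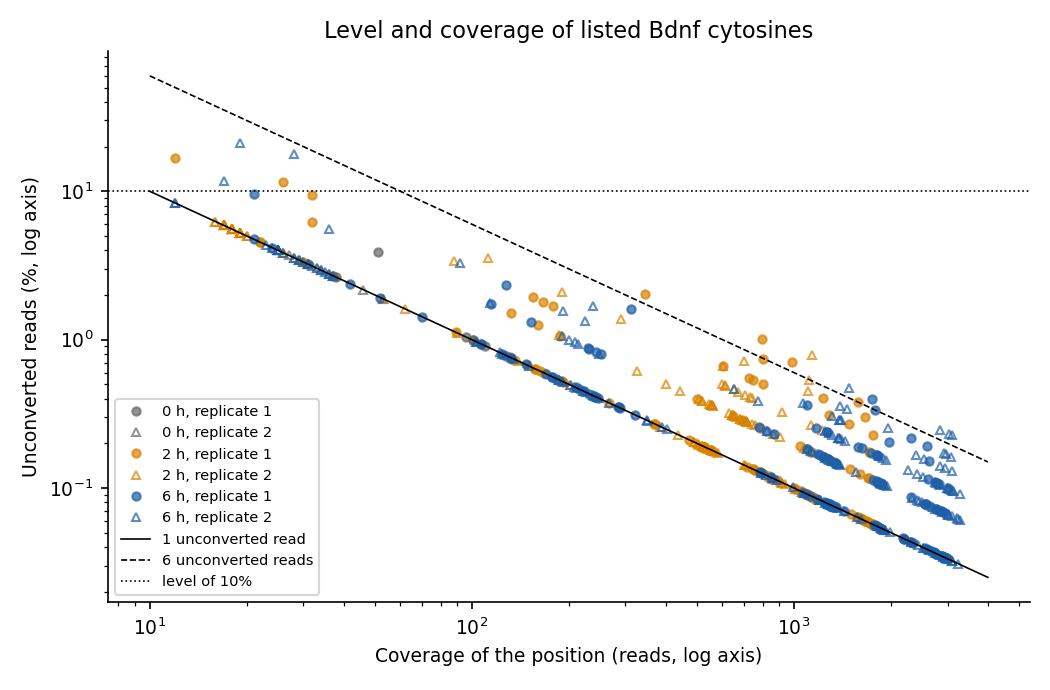
Level of each listed Bdnf cytosine (unconverted reads in percent, log axis) against its coverage in reads (log axis) for the 6 libraries, with lines for 1 and 6 unconverted reads and for a level of 10%. The points follow the line of 1 unconverted read from the 0 h libraries at low coverage to the 6 h libraries at high coverage, and none lies above both the 6-read line and the 10% line.

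At the position listed in 5 libraries with the highest mean level, chr2:109723960, there was 1 unconverted read of 31 in the 0 h replicate 1 library (3.23%, 95% exact interval 0.0816% to 16.7%). After 2 h it had 1 of 1089 and 2 of 715 reads (0.0918% and 0.280%), and after 6 h 3 of 1828 and 3 of 1929 (0.164% and 0.156%). The 0 h level was thus a single read at low coverage, and its interval holds the later levels. A single read was also listed at chr2:109723927, chr2:109723926, and chr2:109723943, where 1 read of 37, 38, and 46 at 0 h gave 2.70%, 2.63%, and 2.17%, while the levels at 2 h and 6 h were 0.0523% to 0.427%. The 95% exact intervals of these 0 h levels began at 0.0684%, 0.0666%, and 0.0550%, and the lowest level at 6 h, 0.0523%, 0.0529%, and 0.0529% in turn, lay under that start at each of the 3 positions. Positions without an unconverted read at 0 h are not listed, so these 0 h levels are no sample of all levels.

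The most unconverted reads at a coding position were 9 of 1142 at chr2:109723710 in the 2 h replicate 2 library (0.788%, 95% exact interval 0.361% to 1.49%). The same position had 1 of 1602 reads in the 2 h replicate 1 library (0.0624%) and 1 of 2975 in the 6 h replicate 2 library (0.0336%), and was not listed in 6 h replicate 1. The 95% exact interval in the 2 h replicate 1 library ended at 0.347%, so the intervals of the 2 h replicates did not meet. At chr2:109726185 in the distal 3′ UTR, 7 of 344 reads were unconverted in the 2 h replicate 1 library (2.03%), and the position was listed in no other library. Intervals cover counting error only, since PCR copies were not separated.

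The level of single sites was tested between 2 h and 6 h, since 0 positions were listed in all 4 libraries of either comparison with 0 h. With 0 h replicate 2 left out, 3 positions could be tested against 2 h and 4 against 6 h, and with 0 h replicate 1 left out, 1 against 6 h. Of these, 0 were called by Fisher's exact test, with a lowest adjusted p of 0.804 and 2 positions at an unadjusted p of at most 0.05, and all were listed at 0 h only because a read was unconverted. Of the 21 coding positions tested between 2 h and 6 h, 0 had a Benjamini-Hochberg adjusted p of at most 0.05 by Fisher's exact test, against 0.666% of 347727 positions of all genes. This share over all genes moved with each library left out, to 0.0857% without 6 h replicate 1, 0.143% without 2 h replicate 1, 0.192% without 2 h replicate 2, and 1.44% without 6 h replicate 2, and 0 Bdnf positions were called in each case. The lowest adjusted p was 0.224, at chr2:109723984, with 9 unconverted and 1622 converted reads at 2 h (0.552%) and 4 and 3545 at 6 h (0.113%). There were 2 positions with an unadjusted p of at most 0.05 by the same test, and limma on the log2 odds called 0 of all positions, with 22040 at an unadjusted p of at most 0.05.

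The level was lower at 6 h at all 21 positions, with a median of 0.166% at 2 h and 0.114% at 6 h. The lowest level that a position could have and still be tested, 2 reads over the summed coverage, was also lower at 6 h at all 21, from 0.0335% to 0.0810% against 0.0683% to 0.164% at 2 h. At 2 h, 6 of the 21 positions were at this limit. The direction is therefore given as a description, with no reading of a change.

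To reduce this limit in the unconverted share, coding cytosines that were not listed were counted with 0 unconverted reads at the interpolated coverage. The interpolation still rests on listed positions, which at 0 h were only 8 and 4 of 180. The share then came to 0.0793% and 0.0488% in the 0 h replicates, 0.0645% and 0.148% after 2 h, and 0.0552% and 0.0862% after 6 h. The means were 0.0641% ± 0.022 (SD, n = 2), 0.106% ± 0.059, and 0.0707% ± 0.022, and the time points overlapped. Over listed positions alone the share was 1.59% and 2.60% in the 0 h replicates, 0.160% and 0.246% after 2 h, and 0.0927% and 0.113% after 6 h, which carries the limit of listing. The planned test over all genes used positions listed in all 6 libraries. It could not be fitted for Bdnf, which had 0 such positions, and the interpolated share was not tested.

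As a background, the unconverted share of deep cytosines (5000 reads or more, a level under 1%) was 0.0838% to 0.0870% in 5 libraries and 0.115% in the 6 h replicate 1 library. The Bdnf coding share was below this value in the 2 h replicate 1 library (95% exact interval 0.0538% to 0.0766%) and in the 6 h replicate 1 library (0.0475% to 0.0637%). It was above it in the 2 h replicate 2 library (0.128% to 0.169%), and its interval held it in the other 3. The background holds listed positions alone and was not interpolated, so the 2 are not on the same footing.

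**Figure D4:**
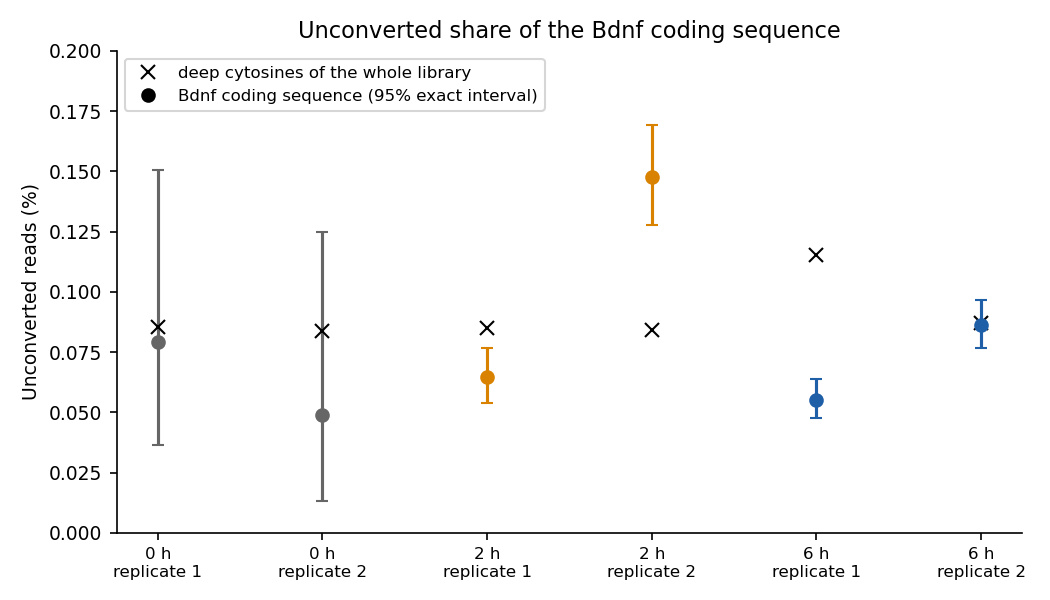
Unconverted reads in percent over the coding sequence of Bdnf in each library, with unlisted cytosines counted as 0 at interpolated coverage (circles, bars are 95% exact intervals for counting error), and the share over deep cytosines of the whole library (crosses). The 2 h replicate 2 library lies highest, at 0.148%, above its cross, and its replicate lies at 0.0645%, below its own.

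The 2 h replicate 2 library also differed in where its unconverted reads lay. It listed 82 consecutive coding cytosines, from nt 369 to 713 of the coding sequence, each with at least 1 unconverted read, at coverages of 385 to 1196, and 40 of them had exactly 1. The longest such stretch was 36 cytosines in the 6 h replicate 2 library, 11 in 6 h replicate 1, 7 in 2 h replicate 1, and 2 and 1 at 0 h. In this library the interpolated share was 0.0578% from nt 1 to 250 of the coding sequence, 0.154% from nt 251 to 500, and 0.262% from nt 501 to 750. In the other replicate of 2 h these were 0.0638%, 0.0420%, and 0.105%.

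Shorter stretches of consecutive listed cytosines, at coverage under 100, lay in the distal 3′ UTR. In the 2 h replicate 2 library, 29 consecutive cytosines over 97 nt (chr2:109724864-109724960) had 16 to 19 reads and exactly 1 unconverted read each, and 8 more over 33 nt (chr2:109725090-109725122) also had 1 each. In the 6 h replicate 2 library, 27 consecutive cytosines over 136 nt (chr2:109726549-109726684) had 23 to 37 reads and 1 or 2 unconverted reads each. Such runs gave levels of up to 6.25% at 2 h. They held 37 of the 57 unconverted reads in the distal 3′ UTR of the 2 h replicate 2 library and 28 of 46 in that of 6 h replicate 2. Whether the unconverted reads of a run were 1 molecule was not tested, since single reads are not in the lists.

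The sequence motifs described for m5C methyltransferases of mRNA were searched in the exons of Bdnf. CNGGG is the G-rich context described for NSUN2 and CTCCA the motif described for NSUN6, each searched on the plus strand with the cytosine of interest as its first letter. The motifs cannot overlap at the same cytosine. In the coding sequence, 3 of 180 cytosines (1.67%) were in CNGGG and 0 in CTCCA. Of the 351 listed Bdnf positions, 6 (1.71%) were in CNGGG and 1 (0.285%) in CTCCA, against 1.87% to 1.97% and 0.745% to 0.766% of all listed cytosines of a library. Of the 1430 cytosines of all exons and the RefSeq extension, listed or not, 36 (2.52%) and 8 (0.559%) were in these motifs. Exon VI held 13 of the 36, and no position of exon VI was listed. The coding position chr2:109723684, shown above, is in CNGGG and had 1 of 101 reads unconverted in 0 h replicate 1 (0.990%), then 0.134% and 0.186% after 2 h and 0.0760% and 0.141% after 6 h.

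Of the other neurotrophins, Ntf3, which encodes neurotrophin-3, fell in coverage, with a median of 416 and 266 reads in the 0 h replicates, then 175 and 185 after 2 h, then 119 and 145 after 6 h. Its log2 difference from 0 h to 6 h was -1.59 ± 0.29, with a limma adjusted p of 0.0403, and 7.16% of genes were called lower. With median-of-ratios scaling its difference was -1.17, with a limma adjusted p of 0.0701. Ntf5, which encodes another member of the family, was not listed.

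Of the 7 receptors and sorting receptors, 6 were tested and 0 passed the limma test in any of the 3 comparisons. Of all genes, 0.0185% passed from 0 h to 2 h, 8.32% from 0 h to 6 h, and 0% from 2 h to 6 h, so a count of 0 in 6 does not set the receptors apart. For Ntrk2, the median coverage was 774 and 592 reads in the 0 h replicates, 578.5 and 611 after 2 h, and 1009 and 1307 after 6 h, and the log2 difference from 0 h to 6 h was 0.51 ± 0.28 (limma adjusted p = 0.287). For Ntrk3, which encodes the neurotrophin-3 receptor TrkC, it was -0.74 ± 0.42 (limma adjusted p = 0.304). For Sort1, which encodes sortilin, a binding partner of proBDNF, it was -0.04 ± 0.25 (limma adjusted p = 0.925). For Sorcs1, Sorcs2, and Sorcs3, sortilin-related receptors, the log2 differences were 0.62, -0.70, and 0.31. With median-of-ratios scaling, these were 1.05, -0.28, and 0.74. Those of Ntrk2, Ntrk3, and Sort1 were then 0.94, -0.31, and 0.38, so Sort1 changed sign, and no receptor passed. Ngfr, the p75 receptor, was listed with 20 to 27 reads in 5 libraries.

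Of the 9 genes for processing and sorting of the precursor, 8 were tested and 1 rose at 6 h, where 1.16% of all genes were called higher. This was Pcsk1, which encodes the prohormone convertase PC1/3, with a median coverage of 23 and 36 reads in the 0 h replicates, 655.5 and 565 after 2 h, and 806 and 620.5 after 6 h. Its log2 difference from 0 h to 6 h was 4.37 ± 0.40, with a limma adjusted p of 0.0292. Furin, another convertase, differed by 0.35 ± 0.36, and Plat, tissue plasminogen activator, by 1.16 ± 0.32 (limma adjusted p = 0.0845).

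Of the 7 signalling adaptors tested, 0 passed at 6 h, where 8.32% of all genes passed. Of the 10 regulators of Bdnf transcription, 8 were tested and 1 fell, where 7.16% of all genes were called lower. This was the CREB coactivator gene Crtc1, which fell by 1.34 on the log2 scale with a limma adjusted p of 0.0435. A count of 1 in 8 tested is near the background of all genes. With median-of-ratios scaling the difference of Crtc1 was -0.91, with a limma adjusted p of 0.116. Npas4, a transcription factor gene induced by activity, was left out of the limma test by the minimum number of listed positions set for each library. It was listed at a median of 13.5 and 11 reads in the 0 h replicates, 1282 and 540 after 2 h, and 533.5 and 246 after 6 h.

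Of the 5 genes induced with or by BDNF, 4 had the minimum of 3 listed positions in every library. Of these, 2 rose at 6 h, where 1.16% of all genes were called higher. Vgf, which encodes a neuropeptide precursor, differed by 3.50 ± 0.24 (limma adjusted p = 0.0292), and Nptx2, which encodes a neuronal pentraxin, by 3.84 ± 0.63 (limma adjusted p = 0.0362). Nptx2 had 107 and 24 reads in the 0 h replicates, 119.5 and 148.5 after 2 h, and 878 and 855 after 6 h.

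In all, 34 of the 41 pathway genes were tested. From 0 h to 6 h, 3 were called higher, 2 lower, and 29 neither, where 1.16% of all genes were called higher and 7.16% lower. The count called lower is near this background. The 3 genes called higher were Pcsk1, Vgf, and Nptx2, and the median log2 difference of the tested pathway genes was -0.09, against -0.41 over all genes. With median-of-ratios scaling, these 3 were called and no other. With any 1 of the 6 libraries left out, limma called 0 genes of the whole table, so that none of these calls held. From 0 h to 2 h and from 2 h to 6 h, 0 were called by limma, where 1704 and 2597 of all genes had an unadjusted p of at most 0.05.

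**Figure D5:**
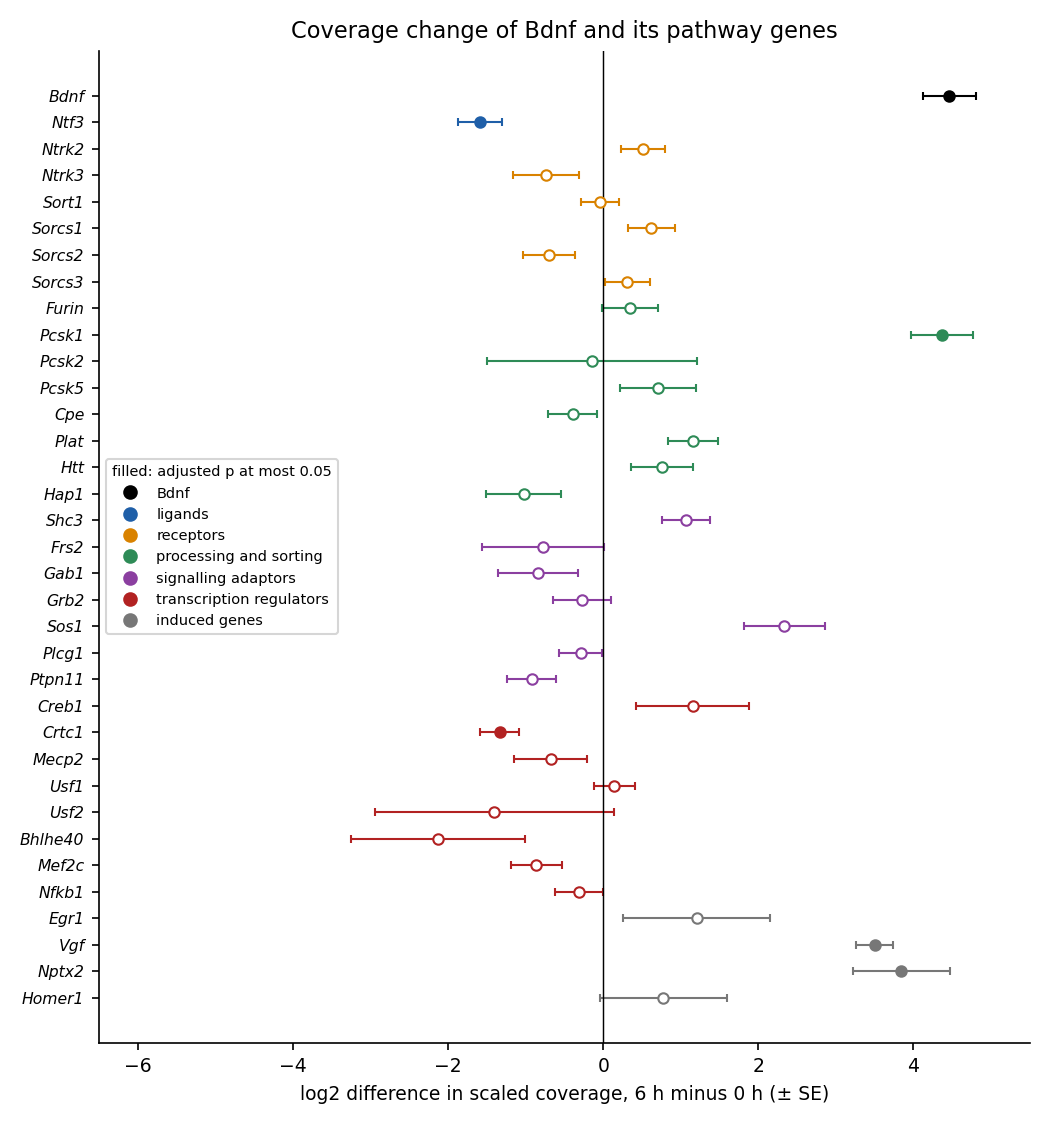
Log2 difference in scaled coverage from 0 h to 6 h (± SE of the limma fit) for Bdnf and the 34 tested pathway genes, coloured by role, with filled points for an adjusted p of at most 0.05. Bdnf at 4.46, Pcsk1 at 4.37, Nptx2 at 3.84, and Vgf at 3.50 lie farthest to the right, and most other genes lie between -2 and 2.

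The genes with the pattern most like that of Bdnf were taken by Pearson's r of log2 scaled coverage over the 6 libraries, among 8050 genes that ranged over at least 1 on that scale. They were Rgs4 (r = 0.997), Baz1a (0.996), Vgf (0.994), Sertad1 (0.992), and Zfp131 (0.991). The 6 libraries fall into 3 time points, so these values describe the same order of the groups. Their log2 differences from 0 h to 6 h were 1.49, 2.93, 3.50, 4.22, and 1.64, against 4.46 for Bdnf.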

How the data were processed

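RNA BS-seq of poly(A) RNA was analysed in 6 libraries, 2 per time point. Per the study's methods, the authors trimmed the reads, mapped them to the mouse genome (GRCm38; mm10 in the labels) with meRanTK, and listed candidate cytosines. They deposited read counts per position (coverage, unconverted reads, and reads with another base), not normalized, and the level as a fraction. R 4.1.1 is named in the submitters' processing notes.

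Members and gene lists were chosen with earlier results of these data known. Positions were placed in segments from GENCODE M21 and RefSeq on GRCm38. As Bdnf had 0 positions listed in all 6 libraries, gene coverage was the median over the listed positions of each library, with at least 3 in every library (10804 genes), scaled by summed coverage and tested with limma on log2 values without a pseudocount, at an adjusted p of 0.05. Sites were tested with Fisher's exact test (two-sided) on reads summed over replicates, over positions listed with at least 10 reads in all 4 libraries compared. P-values were adjusted by Benjamini-Hochberg over all genes or positions, and the tests were tested on simulated data. Runs were at least 5 consecutive cytosines, all listed, with coverage under 100. Named positions were those past the standard filter, those with an adjusted p of at most 0.05 (0 in both cases), and the 5 with the highest mean level among those listed in the most libraries with coverage of at least 20. Named genes were the receptors, Ntf3, and from the other roles the largest change in coverage that passed the test; other genes were named after their values were seen, and a few genes of the lists are not reported here. With 2 replicates, limma p-values rest on the spread between them, drawn toward that of all genes or positions. Fisher's exact test on summed reads leaves this spread out. The 3C and signal/noise filters, which need single reads, were not repeated, nor was the secondary structure filter. The caller's p-values and score, and so the FDR filter, were not used. Alternatives were other scalings, filters, tests, and positions, the replicate block, and leaving out each library. Tools were limma 3.58.1 and edgeR 4.0.16 in R 4.3.3, and scipy 1.17.1, pandas 2.3.3, numpy 2.4.6, and matplotlib 3.10.9 in Python 3.11.15.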

Additional observations from a re-analysis of the deposited data

Results flagged for a closer look

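One Bdnf position with a reference T, chr2:109723728 at nt 326 of the coding sequence, was listed in the 6 h replicate 2 library with 5 reads of C among 3105 (0.161%). It lies outside the cytosines described above, and was listed in no other library. It is given because its count is over 3 reads, the most that a count of 0 would allow. As it is listed because it had reads of C, this is no test of whether the count is unusual, and the rate at which T is read as C was not measured.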

How the results depend on the processing

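The log2 rise in Bdnf coverage from 0 h to 6 h kept its direction under all 11 alternatives and its call under 4. It was 4.46 with the replicate block, where the limma adjusted p was 0.0666, and 4.15 to 4.78 with a library left out. From 0 h to 2 h, the value passed the threshold in 2 of 11 alternatives: 3.94 in the coding sequence alone, chosen after seeing the data, and 7.98 with edgeR on summed coverage, which also counts the number of listed positions. edgeR gave 9.34 for 6 h against 0 h, with an adjusted p of 5.79e-06. With a library left out, 2 h against 0 h ranged from 3.32 to 3.95. From 2 h to 6 h, 1 of 12 alternatives passed, 1.01 at positions listed in all 4 libraries, chosen after seeing the data, and values with a library left out ranged from 0.56 to 1.09.

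Genes called from 0 h to 6 h numbered 899, against 460 with median-of-ratios scaling, 1034 with 1 position per gene, 1978 in the coding sequence, 1930 with edgeR, and 0 with the replicate block or a library left out. From 0 h to 2 h they numbered 2, against 0, 0, 254, 559, and 0, and from 2 h to 6 h 0, against 6, 0, 991, 1731, and 0, and 2118 at positions listed in all 4 libraries. The deviations of same-numbered replicates from their group means correlated by 0.015 to 0.017 over genes. The labels do not say whether same-numbered libraries share a culture or a batch, and this correlation cannot settle it.

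The number of Bdnf sites called between 2 h and 6 h was 0 in all 8 alternatives, including the replicate block and 4 leave-outs (0 to 0). The mean coding share over listed positions was 2.10% (0 h), 0.203% (2 h), and 0.103% (6 h), and became 0.0641%, 0.106%, and 0.0707% with unlisted cytosines counted as 0. With a library left out it was 1.59% to 2.60%, 0.160% to 0.246%, and 0.0927% to 0.113%. Positions past the standard filter numbered 0, and 2 with 3 unconverted reads. At least 10 positions per gene, the distal to proximal ratio with its alternatives, and the fitted share gave no value for Bdnf, and the causes of the other changes were not tested. Coverage at 0 h limits what can be listed: a cytosine with 27 to 110 reads is absent unless 1 read is unconverted.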
